A study of Mus musculus and Macaca mulatta with 39 samples.

Results

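Eomes and Tbr1 are T-box genes of the developing cerebral cortex, and the regions called around them in mouse cortex are described here. The members are the regions that lie in a 100-kb window around each gene, chr9:118340001-118440000 for Eomes and chr2:61590001-61690000 for Tbr1 on build mm9. These windows held 98 of the 921935 regions in the 16 mouse lists, and the lists of the whole series, mouse and rhesus, held 1556996. The Eomes window held 58 regions, 22 of H3K27ac and 36 of H3K4me2. The Tbr1 window held 40 regions, 24 of H3K27ac and 16 of H3K4me2.

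Chromatin immunoprecipitation and sequencing (ChIP-seq) was carried out on cortex of C57BL6J mouse embryos for H3K27ac, an acetylation of histone H3, and H3K4me2, a dimethylation of histone H3. The mouse groups were cortex at embryonic day 11.5 (E11.5), cortex at E14.5, frontal cortex at E17.5 and occipital cortex at E17.5, with 2 biological replicates of each mark in each group and no genetic change or drug named. Each replicate comprised both marks and an input that they shared, per the design text. The series asks how regulatory elements change as the cortex is built. How many embryos were pooled for a replicate, and whether frontal and occipital tissue came from the same embryos, is not stated in the labels.

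T-box proteins are transcription factors that bind DNA through a shared T-box domain. Eomes, also called Tbr2, marks the intermediate progenitors that divide in the subventricular zone and give rise to glutamatergic neurons of the cortex. Tbr1 is switched on later in that lineage, in postmitotic glutamatergic neurons, and is needed for the identity of early-born, deep-layer neurons. H3K27ac is found at active promoters and enhancers, while H3K4me2 marks promoters and enhancers in active and inactive states alike.

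The promoter sequences of both genes are shown because T-box factors can act on T-box genes, so that the core of their binding site, AGGTG, is the element a reader would look for in them. Each is the 250 bases before the gene start on the plus strand, from RefSeq on build GRCm38.p6, and capitals mark AGGTG or its reverse complement CACCT.
Eomes: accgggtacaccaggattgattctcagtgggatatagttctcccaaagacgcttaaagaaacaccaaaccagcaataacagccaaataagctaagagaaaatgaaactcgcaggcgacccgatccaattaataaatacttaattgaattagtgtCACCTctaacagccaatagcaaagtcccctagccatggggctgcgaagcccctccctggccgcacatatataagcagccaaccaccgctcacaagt
Tbr1: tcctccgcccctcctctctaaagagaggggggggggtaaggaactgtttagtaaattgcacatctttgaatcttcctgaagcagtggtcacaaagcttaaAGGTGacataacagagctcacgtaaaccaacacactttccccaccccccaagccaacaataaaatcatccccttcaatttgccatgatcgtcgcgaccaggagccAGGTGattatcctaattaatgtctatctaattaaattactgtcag
The Eomes promoter held 1 such match, whose first base lay 96 bases before the start. The Tbr1 promoter held 2, at 150 and 45 bases before the start, and 1 of these lay inside the E box CAGGTG, a bHLH motif. Of 32851 promoters of the same length, 46.0% held AGGTG on either strand, so the matches do not set these genes apart.

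Exact matches to other elements differed between the promoters. TAATTA, a homeodomain core, had no exact match in the Eomes promoter. It occurred at 33 and 18 bases before the start of Tbr1, against a share of 4.84% of all promoters. CCAAT occurred at 127 and 84 bases before the start of Eomes and was absent from the Tbr1 promoter, and 33.8% of all promoters held it. TATAAA, on either strand, was in neither promoter (12.4% of all). Only exact sequences were searched, so TATA-like stretches such as TATATAAG in the Eomes sequence were not counted. Nor were the shorter stretches TAAT and ATTA, which the Eomes sequence also holds. The longer T-box half-site AGGTGTGA was also in neither promoter (1.12% of all). A match is only a description of these letters, and the deposited regions could not be laid over these sequences because they are on another build.

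The authors deposited positions of called regions with no read count, signal or score, so read depth is unknown and no counting interval is given. For each list, a window was given the number of its bp that fall inside a called region. The 8 H3K27ac lists held 47631 to 87236 regions over 63.1 to 169 Mb, and the 8 H3K4me2 lists 32366 to 76833 regions over 65.3 to 162 Mb. H3K27ac lists were longer on average at later stages, though E17.5 occipital replicate 2 (129 Mb) was shorter than E14.5 replicate 1 (144 Mb). The median window gained 0.63 on the log2 scale at E17.5 against E11.5. The tissue labels could not be checked against other marker genes, since no mm9 gene annotation was used. In whole cortex, fewer cells with a mark and a shorter marked stretch per cell cannot be told apart.

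H3K27ac covered less of the Eomes window than of the Tbr1 window in each of the 8 lists, whereas H3K4me2 covered similar lengths of both. At E11.5, H3K27ac covered 7375 and 5175 bp of the Eomes window in replicates 1 and 2. At E14.5 it covered 12275 and 6650 bp. At E17.5 it covered 5825 and 4050 bp in frontal cortex and 6275 and 3550 bp in occipital cortex. The Eomes values at E17.5 all lay below both E14.5 values, as in 5.19% of all windows tested, and overlapped those of E11.5. The highest single value was E14.5 replicate 1.

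In the Tbr1 window, H3K27ac covered 14600 and 9850 bp at E11.5 and 26550 and 16850 bp at E14.5. At E17.5 it covered 17175 and 25225 bp in frontal cortex and 24400 and 14750 bp in occipital cortex. Both E11.5 lists lay below all 6 later lists, and the replicates of E14.5, frontal and occipital cortex lay far apart. Over all windows tested, both E14.5 lists exceeded both E11.5 lists in 43.8%, and every E17.5 list did so in 47.8%. The share for all 6 later lists together was not counted.

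Stage means ran in different order for the genes. The Eomes window averaged 6275 ± 1556 bp of H3K27ac in E11.5 lists, 9462.5 ± 3977 bp in E14.5 lists (SD, n = 2 each) and 4925 ± 1328 bp at E17.5 (SD, n = 4 lists of both areas). The Tbr1 window averaged 12225 ± 3359 bp in E11.5 lists, 21700 ± 6859 bp in E14.5 lists (SD, n = 2 each) and 20387.5 ± 5215 bp at E17.5 (SD, n = 4). Eomes was thus at its highest mean at E14.5, while Tbr1 had almost equal means at E14.5 and E17.5.

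**Figure D1:**
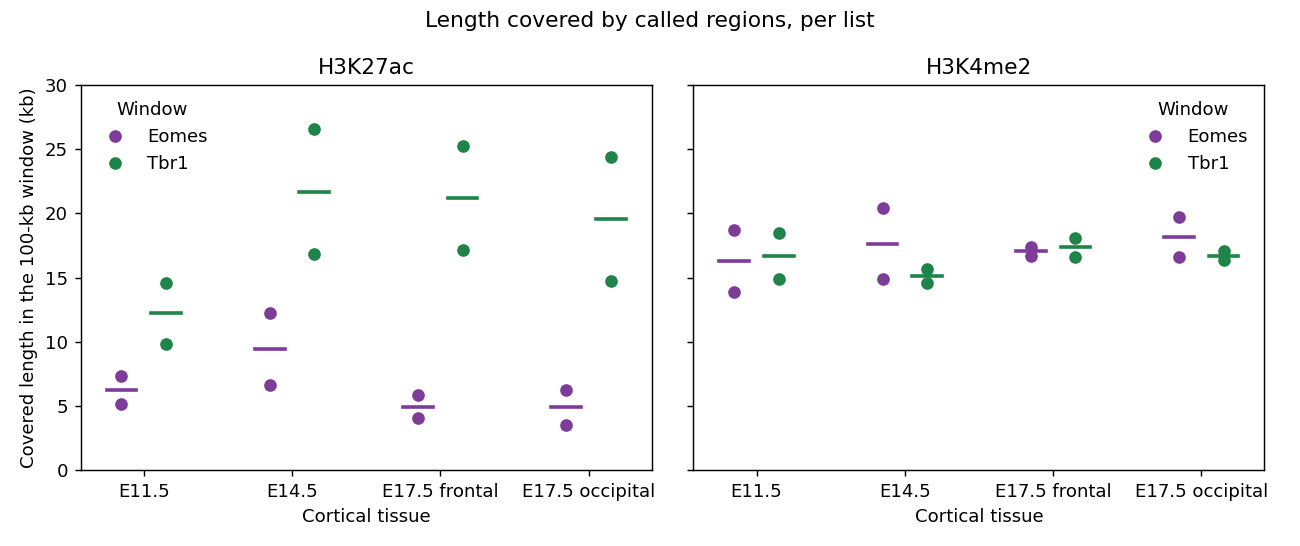
Length covered by called regions (kb, vertical axis) in the 100-kb Eomes and Tbr1 windows, by cortical tissue, for H3K27ac (left) and H3K4me2 (right). Points are lists (2 per tissue) and bars their means. H3K27ac of the Eomes window lies between 3550 and 12275 bp and that of the Tbr1 window between 9850 and 26550 bp, and in every tissue the Eomes points lie below both Tbr1 points, while the H3K4me2 points of the genes intermingle.

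None of these stage differences passed the test within a gene. Covered length was tested as log2(bp + 1000) with limma over 19718 windows of the genome with H3K27ac in at least 2 lists, at a Benjamini-Hochberg adjusted p of 0.05. Of the 8 H3K27ac values (2 windows in 4 contrasts), 0 passed and 1 had an unadjusted p below 0.05. That value was the Eomes window at E17.5 against E14.5, with a log2 difference of -0.79 (SE 0.33, unadjusted p = 0.0483, limma adjusted p = 0.262), where 0.898% of all windows were called. No window was called there in 7 of the 8 fits that left out a list. Relative to the median window, which gained 0.21, the Eomes difference was -1.01. All 4 E17.5 lists were lower than both E14.5 lists for Eomes, as in 5.19% of all windows. Without E14.5 replicate 1 the Eomes difference was -0.40, and without E14.5 replicate 2 it was -1.19.

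Against E11.5, the Eomes window at E17.5 differed by -0.31 (SE 0.33, limma adjusted p = 0.509), or by -0.94 relative to the median window. Leaving out a list in turn gave -0.087 (without E11.5 replicate 1) to -0.53 (without E11.5 replicate 2). The Tbr1 window differed by 0.68 (SE 0.32, limma adjusted p = 0.152), or by 0.05 relative to the median window, and gave 0.95 and 0.42 without E11.5 replicate 1 and E11.5 replicate 2. All 4 E17.5 lists exceeded both E11.5 lists for Tbr1, as in 47.8% of windows, and 32.9% of windows were called in this contrast. The Tbr1 window was therefore close to the typical window, and that of Eomes was below it. Once covered length was scaled to each list's total, the Eomes difference was -1.24 with a limma adjusted p of 0.00842, and the Tbr1 difference turned to -0.33 (adjusted p = 0.265). The split of called windows moved as well under that scaling, to 3327 higher and 3807 lower, against 6329 higher and 151 lower as called.

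The step to E14.5 went the same way in both windows without passing the test. At E14.5 against E11.5 the Eomes window differed by 0.49 (SE 0.38, limma adjusted p = 0.531) and the Tbr1 window by 0.77 (SE 0.37, limma adjusted p = 0.277), and the median window by 0.35. Leaving out a list in turn gave 0.089 (without E14.5 replicate 1) to 0.88 (without E14.5 replicate 2) for Eomes and 0.46 to 1.08 for Tbr1 without the same lists. Both E14.5 lists exceeded both E11.5 lists for Tbr1, as in 43.8% of windows, and 6.41% of windows were called, a share that was 0 without E11.5 replicate 2 or without either E14.5 list. Under scaling to the list total the Eomes difference turned to -0.19. At E17.5 against E14.5 the Tbr1 window differed by -0.09 (SE 0.32, limma adjusted p = 0.935).

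Frontal and occipital cortex did not differ detectably in either window. At E17.5 the Eomes window averaged 4937.5 ± 1255 bp of H3K27ac in frontal and 4912.5 ± 1927 bp in occipital cortex (SD, n = 2 each), a log2 difference of 0.03 (SE 0.38, limma adjusted p = 1). The Tbr1 window averaged 21200 ± 5692 bp in frontal and 19575 ± 6824 bp in occipital cortex (SD, n = 2 each), a log2 difference of 0.13 (SE 0.37, limma adjusted p = 1). In this contrast 0% of all windows were called, and with 2 lists a side both differences were smaller than their standard errors.

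The ratio of Eomes to Tbr1 covered length sets windows of the same list against each other, both of 100 kb. For H3K27ac the log2 ratio was -0.90 and -0.81 at E11.5, -1.05 and -1.22 at E14.5, -1.41 and -2.38 in E17.5 frontal cortex and -1.80 and -1.79 in E17.5 occipital cortex. It was negative in all 8 lists. All 4 E17.5 values lay below all 4 values of E11.5 and E14.5, a grouping chosen after the values were seen. How many other pairs of windows part in this way was not counted. The ratio averaged -1.42 ± 0.537 (SD) over the 8 lists. An exact two-sided sign-flip permutation over lists gave p = 0.00781, the smallest that 8 lists can give (adjusted 0.0117 over 3 such tests). These tests were added after the values were seen and so give no independent support. They also count the lists as independent, which the labels do not settle for frontal and occipital tissue.

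The mean ratio was lowest at E17.5, and no stage difference in it passed a test. It averaged -0.86 ± 0.0595 at E11.5 and -1.14 ± 0.12 at E14.5 (SD, n = 2 each), and -1.85 ± 0.397 at E17.5 (SD, n = 4). At E17.5 against E11.5 the difference was -0.99, with an exact two-sided permutation p of 0.0667, the smallest that 4 against 2 lists can give (adjusted 0.533 over 8 tests). At E17.5 against E14.5 it was -0.71 (exact permutation p = 0.2), at E14.5 against E11.5 -0.28 (exact permutation p = 0.333, the smallest possible), and in frontal against occipital cortex -0.10 (exact permutation p = 1). The E17.5 permutations count frontal and occipital lists as independent lists of the same stage, which the labels do not settle. The mean of the 4 E17.5 lists differed from that of the 4 earlier lists by -0.85. This grouping was chosen after the values were seen, so no test is given.

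**Figure D2:**
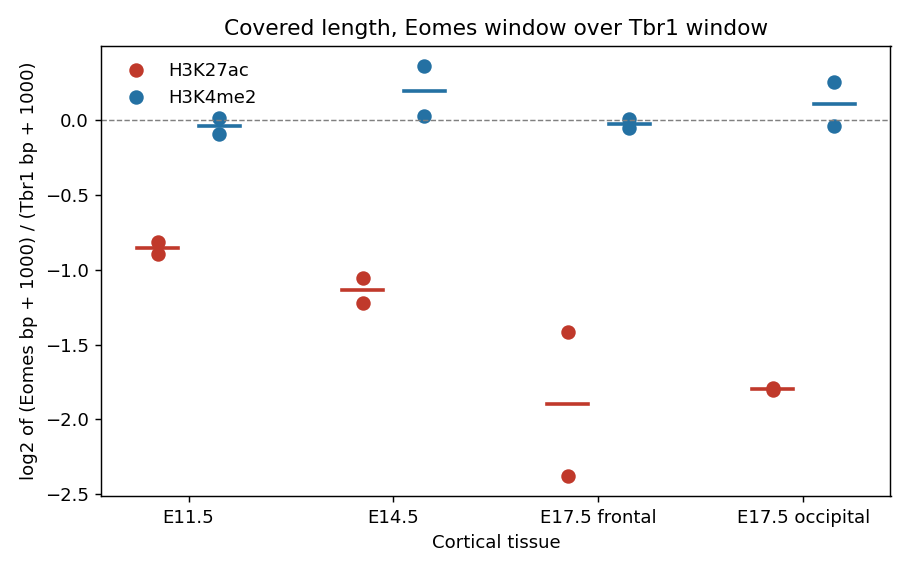
Log2 ratio of covered length in the Eomes window over the Tbr1 window (1000 bp added to each; vertical axis) by cortical tissue, with points for lists and bars for the means of 2 lists. H3K27ac ratios are all negative and lowest at E17.5 (-1.41 to -2.38), while H3K4me2 ratios lie around the dashed line of equal length (-0.09 to 0.36).

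H3K4me2 covered the windows to similar lengths at every stage. It covered 13900 and 18700 bp of the Eomes window at E11.5, 14900 and 20400 bp at E14.5, 17400 and 16675 bp in E17.5 frontal cortex and 16625 and 19700 bp in E17.5 occipital cortex. It covered 14875 and 18500 bp of the Tbr1 window at E11.5, 14600 and 15675 bp at E14.5, 18100 and 16600 bp in E17.5 frontal cortex and 17075 and 16350 bp in E17.5 occipital cortex. Over the 8 lists this came to 17287.5 ± 2252 bp for Eomes and 16471.9 ± 1407 bp for Tbr1 (SD). All 4 Tbr1 values at E17.5 lay above both E14.5 values, as in 32.2% of windows, while stages overlapped for Eomes.

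Of the 8 H3K4me2 window values, 0 passed the limma test and 0 had an unadjusted p below 0.05. The log2 differences lay between -0.13 (Tbr1, E14.5 against E11.5) and 0.16 (Tbr1, E17.5 against E14.5). Among 18896 windows tested, 1.3% were called at E17.5 against E11.5 and 0% in each of the other contrasts. The log2 ratio of Eomes to Tbr1 was 0.06 ± 0.160 (SD, 8 lists) and negative in 3 of 8 lists, with an exact sign-flip permutation p of 0.43. In the central 50 kb of each window it was -0.18 (exact sign-flip permutation p adjusted to 0.0234), so that the closeness of the windows depends on their width. The H3K4me2 ratio differed by 0.08 at E17.5 against E11.5 (exact permutation p = 0.667).

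The windows also differed in how the covered bases were laid out, as the map of called regions shows. The widest H3K27ac region of a list measured 1975 to 6375 bp in the Eomes window and 5775 to 20025 bp in the Tbr1 window. The widest H3K4me2 region measured 5650 to 14575 bp in the Eomes window and 13375 to 16350 bp in the Tbr1 window. A list held 2 to 4 separate H3K27ac regions at Eomes (mean 2.75) and 1 to 5 at Tbr1 (mean 3). It held 3 to 6 separate H3K4me2 regions at Eomes (mean 4.5) and 1 to 3 at Tbr1 (mean 2). H3K4me2 at Tbr1 was thus mostly a single broad block, and at Eomes several shorter ones.

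**Figure D3:**
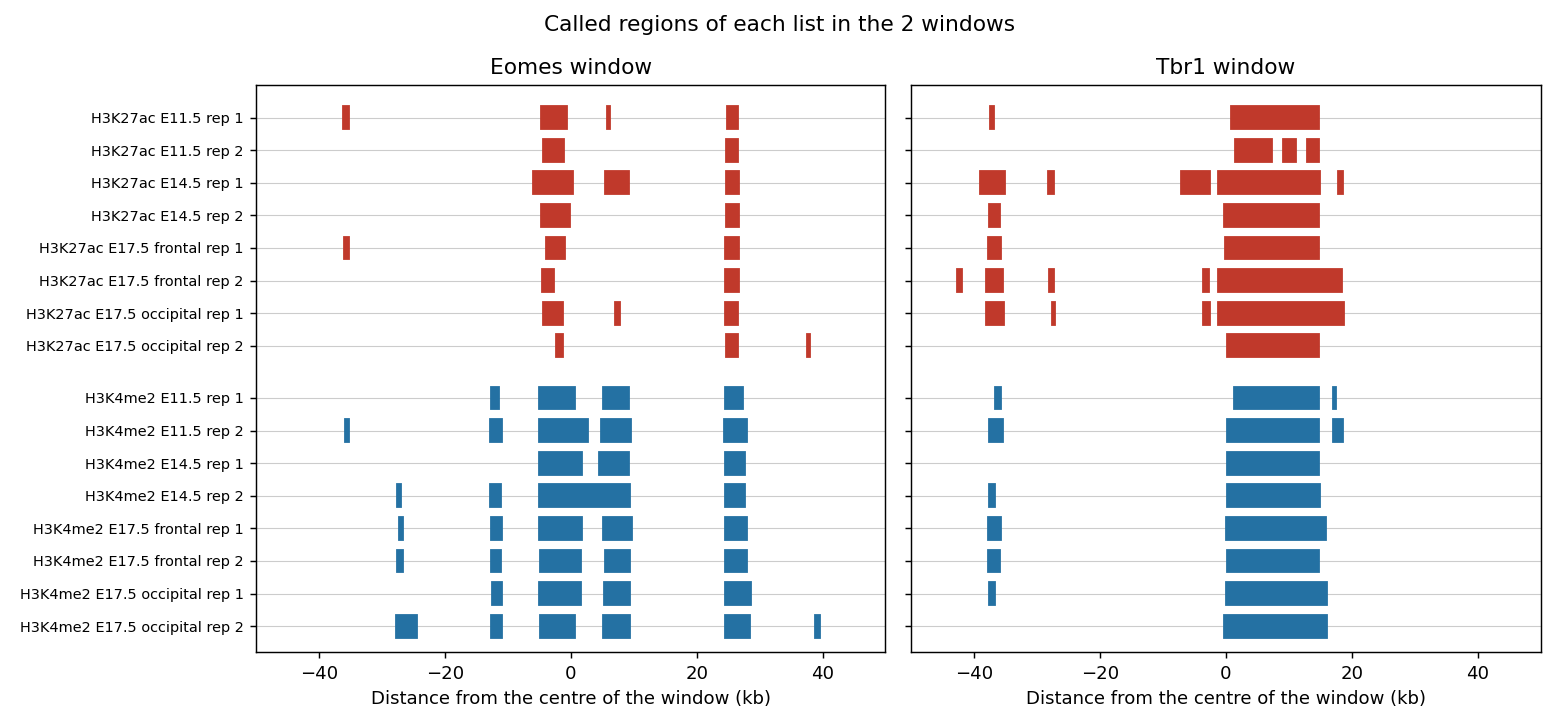
Called regions (boxes) of the 8 H3K27ac lists (red) and 8 H3K4me2 lists (blue) along the Eomes window (left) and the Tbr1 window (right), as distance from the centre of the window in kb. Every list has a broad Tbr1 block of both marks that lies mostly to the right of the centre, split into 3 in H3K27ac of E11.5 replicate 2, while the Eomes blocks are shorter and several of them carry H3K4me2 alone in most lists.

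Bases called in at least 2 of the 16 lists formed 6 segments in the Eomes window, named E1 to E6 by position, and 4 in the Tbr1 window, named T1 to T4. They were defined after the data were seen, and their values are descriptions with no test. E4 (chr9:118384876-118392700) carried both marks in all 8 lists of each. H3K27ac covered 4150 and 3350 bp of E4 at E11.5, 5525 and 4675 bp at E14.5, 3050 and 1950 bp in E17.5 frontal cortex and 3275 and 1050 bp in E17.5 occipital cortex. All 4 E17.5 values lay below the 4 earlier ones, whereas H3K4me2 of E4 stayed between 5650 and 7825 bp. Among H3K27ac regions merged over the 8 lists, 6.15% had every E17.5 list below both E14.5 lists. In 3.93% every E17.5 list lay below both E11.5 lists. The share below all 4 earlier lists was not counted.

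E5 (chr9:118394427-118399625) carried H3K4me2 over 3975 to 5024 bp in all 8 lists. H3K27ac was called there in 3 of 8 lists, over 500 bp in E11.5 replicate 1, 3825 bp in E14.5 replicate 1 and 850 bp in E17.5 occipital replicate 1. The E14.5 replicates therefore disagreed, since replicate 2 had no H3K27ac region in E5. E6 (chr9:118414426-118418400) carried both marks in all 8 lists, with 1800 to 2150 bp of H3K27ac and 2750 to 3975 bp of H3K4me2.

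The remaining Eomes segments were short. E3 (chr9:118377201-118379125) had H3K4me2 in 7 of 8 lists, all but E14.5 replicate 1, and H3K27ac in 0 of 8. E2 (chr9:118362326-118363375) had H3K27ac in 0 lists and H3K4me2 in 4, over 725 bp in E14.5 replicate 2, 700 and 1050 bp in both frontal lists and 1050 bp in occipital replicate 2, and in neither E11.5 list. E1 (chr9:118354027-118354700) had H3K27ac in 2 lists, 1 at E11.5 and 1 in frontal cortex, and H3K4me2 in 1.

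The Tbr1 window was made up chiefly of T4 (chr2:61638751-61658650), which carried both marks in all 8 lists. H3K27ac covered 13950 and 9850 bp of T4 at E11.5, 17025 and 15100 bp at E14.5, 15025 and 19675 bp in E17.5 frontal cortex and 19900 and 14750 bp in E17.5 occipital cortex. Both E11.5 values lay below all later ones, like those of the whole Tbr1 window. Such a rise was common among 100-kb windows, where every E14.5 list exceeded E11.5 in 43.8% and every E17.5 list in 47.8%. Its share among segments as short as T4 was not counted. H3K4me2 of T4 covered 13925 to 16350 bp. T1 (chr2:61601826-61604750) had each mark in 6 lists. T2 (chr2:61611851-61612750) and T3 (chr2:61636376-61637425) had H3K27ac in the same 3 lists, E14.5 replicate 1, frontal replicate 2 and occipital replicate 1, and H3K4me2 in 0. These 3 lists also had the highest H3K27ac length in the Tbr1 window as a whole.

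**Figure D4:**
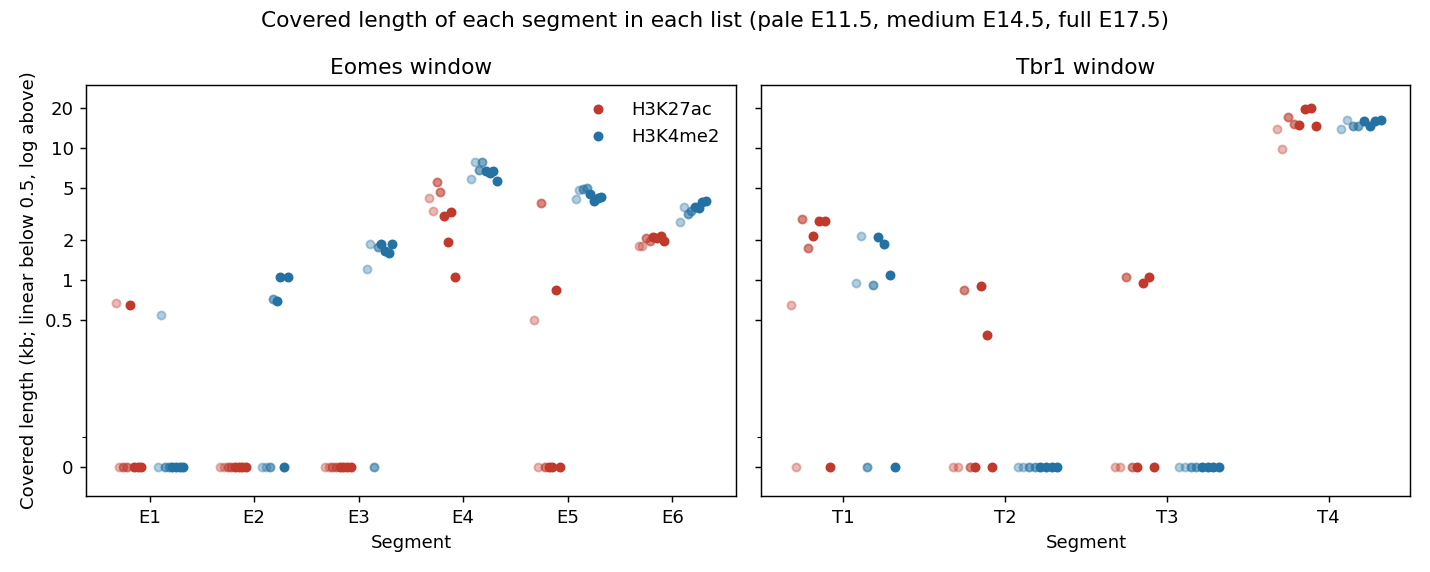
Covered length of each segment in each list (kb, vertical axis, linear below 0.5 and logarithmic above), for the Eomes window (E1 to E6, left) and the Tbr1 window (T1 to T4, right), with H3K27ac in red, H3K4me2 in blue and darker points at later stages. H3K27ac of E4 is lowest at E17.5 (1050 to 3275 bp), that of E6 stays at 1800 to 2150 bp, and E2 and E3 have H3K4me2 alone.

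Bases called in every list of a mark show the constant part of each window. For H3K27ac it was a single stretch of 1725 bp in the Eomes window (chr9:118414801-118416525, inside E6), 12.4% of the bases called in any list. In the Tbr1 window it was 9850 bp in 3 stretches inside T4, 32.2% of the bases called in any list, of which the longest was 5775 bp (chr2:61641526-61647300). For H3K4me2 it was 12149 bp at Eomes, 47.7% of the bases called in any list, in 3 stretches inside E4, E5 and E6. At Tbr1 it was a single stretch of 13375 bp (chr2:61641351-61654725), 66.0% of the bases called in any list. The constant H3K27ac of the Eomes window thus lay outside the longest H3K4me2 block of that window, and that of the Tbr1 window inside its block. Which gene the constant stretch in E6 belongs to was not analysed.

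The share of H3K4me2-covered bases also covered by H3K27ac was lower at Eomes than at Tbr1, where it was near complete at E14.5 and E17.5. In the Eomes window it was 46.4 and 27.7% at E11.5, 76.5 and 32.6% at E14.5, 29.7 and 24.3% in E17.5 frontal cortex and 37.7 and 15.4% in E17.5 occipital cortex. In the Tbr1 window it was 89.9 and 53.2% at E11.5, 100 and 99.5% at E14.5, 93.9 and 100% in E17.5 frontal cortex and 100 and 90.2% in E17.5 occipital cortex. Over the whole lists it was 69.8 and 40.4% at E11.5, 83.7 and 63.5% at E14.5, 66.6 and 73.6% in E17.5 frontal cortex and 69.0 and 55.8% in E17.5 occipital cortex. In each of the 8 pairs of lists, Eomes lay below the whole lists and Tbr1 above them.

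Eomes was below Tbr1 by 54.6 ± 21.0 percentage points (SD, 8 pairs), and lower in 8 of 8 pairs. The exact two-sided sign-flip permutation p was 0.00781, the smallest possible (adjusted 0.0117). This test was added after the values were seen and gives no independent support. With H3K4me2 lengths alike, a shorter H3K27ac length also lowers the share, so the share is not separate from the length difference. At E17.5 the share averaged 26.8 ± 9.41% at Eomes, 96.04 ± 4.82% at Tbr1 and 66.2 ± 7.55% over the whole lists (SD, n = 4). At E11.5, at E14.5 and in E17.5 occipital cortex the replicates were far apart at Eomes, and at E11.5 also at Tbr1. Replicate 1 was the higher in each of these, as over the whole lists of the same tissues. The part of this replicate difference in the shares was not tested.

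**Figure D5:**
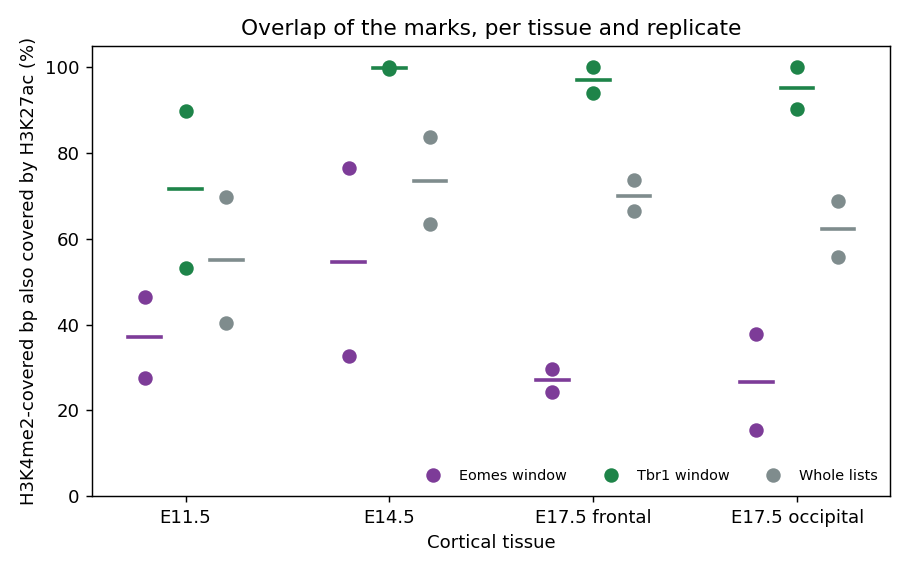
Percent of H3K4me2-covered bp also covered by H3K27ac (vertical axis) in the Eomes window, the Tbr1 window and the whole lists, by cortical tissue, with points for replicates and bars for means. Tbr1 reaches 90.2% or more in all pairs at E14.5 and E17.5, and Eomes lies below the whole lists in every pair (15.4 to 76.5%).

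Single loci, made by merging touching regions over the 8 lists of a mark, were tested as log2(bp + 200) with limma over all loci of the genome. For H3K27ac 4 of 5 loci of each window were called in at least 2 lists and so were tested, and for H3K4me2 4 of 6 at Eomes and 3 of 3 at Tbr1. Of 32 H3K27ac values (8 loci in 4 contrasts) 0 passed and 1 had an unadjusted p below 0.05. The share of all H3K27ac loci called was 7.48% at E14.5 against E11.5, 1.13% at E17.5 against E14.5, 19% at E17.5 against E11.5 and 2.31% in frontal against occipital cortex. That was the longest Eomes locus (chr9:118384026-118390400, over E4), covered over 4150 and 3350 bp at E11.5, 6375 and 4675 bp at E14.5, 3050 and 1950 bp in E17.5 frontal cortex and 3275 and 1050 bp in E17.5 occipital cortex. All 4 E17.5 lists lay below both E14.5 lists, as at 6.15% of loci, and below both E11.5 lists, as at 3.93% of loci. At E17.5 against E14.5 its log2 difference was -1.27 (SE 0.44, unadjusted p = 0.0297, limma adjusted p = 0.26). The longest Tbr1 locus (chr2:61638701-61658725, over T4) differed by 0.54 at E17.5 against E11.5 (SE 0.25, limma adjusted p = 0.185). In the same contrast the locus over E6 in the Eomes window (chr9:118414476-118416750) differed by 0.18 (SE 0.13, limma adjusted p = 0.391).

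For H3K4me2, a single short locus beside the Tbr1 block (chr2:61656951-61658575, a span of 1625 bp) was covered over 550 and 1625 bp in the E11.5 lists and over 0 bp in the 6 later lists. It accounts for the 2 of 28 H3K4me2 locus values below the threshold, at E14.5 and at E17.5 against E11.5. Because it entered the test only through the E11.5 lists in which it was called, its difference was set by the filter, and it is given as a description with no fold or p. It vanished as a separate locus when regions up to 1000 bp apart were merged, which joins it to its neighbour. The share of all H3K4me2 loci called was 3.94% at E14.5 against E11.5, 13.6% at E17.5 against E14.5, 22.7% at E17.5 against E11.5 and 9.93% in frontal against occipital cortex.

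The longest H3K4me2 loci did not change detectably. That of Eomes (chr9:118384876-118399650, over E4 and E5) was covered over 9900 to 14575 bp in the 8 lists, and both lists of E14.5 lay among its 3 highest. At E17.5 against E14.5 it differed by -0.29 (SE 0.14, limma adjusted p = 0.272). That of Tbr1 (chr2:61639676-61656025) was covered over 13375 to 16350 bp and differed by 0.16 at E17.5 against E11.5 (SE 0.087, limma adjusted p = 0.249). The Eomes locus over E3 (chr9:118377101-118379125), covered over 0 bp in E14.5 replicate 1 and 1775 bp in replicate 2, differed by -1.49 at E14.5 against E11.5 (SE 1.03, limma adjusted p = 0.824). Without E14.5 replicate 2 it differed by -3.14 for E14.5 against E11.5 and by 3.28 for E17.5 against E14.5, so that the E14.5 value rests on which replicate is used. The H3K4me2 locus over E6 (chr9:118414401-118418575) differed by 0.26 at E17.5 against E11.5 (SE 0.11, limma adjusted p = 0.167), and by 0.43 without E11.5 replicate 2.

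No segment or locus was assigned to a promoter or enhancer. In RefSeq on GRCm38.p6 the protein-coding neighbours of Eomes are LOC115486419 before it and Golga4 after it, and those of Tbr1 are Psmd14 before it and Slc4a10 after it. Whether parts of these genes lie in the windows was not analysed here.

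Among all windows, that of Tbr1 ranked high for H3K27ac at every stage, and that of Eomes ranked higher at E11.5 and E14.5 than at E17.5. The Eomes window covered more H3K27ac than 82.0 and 79.6% of windows at E11.5, 81.8 and 74.2% at E14.5, 57.4 and 42.5% in E17.5 frontal cortex and 58.3 and 46.4% in E17.5 occipital cortex. The Tbr1 window covered more than 94.8 and 93.4% at E11.5, 95.3 and 93.1% at E14.5, 85.6 and 94.2% in E17.5 frontal cortex and 93.4 and 88.9% in E17.5 occipital cortex. All 4 E17.5 ranks of Eomes lay below its 4 earlier ranks, but how many other windows part in this way was not counted. For H3K4me2 the windows covered more than 91.4 to 97.9% of windows at Eomes and 86.5 to 97.2% at Tbr1. These ranks are given as a description with no test.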

How the data were processed

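H3K27ac and H3K4me2 region lists of mouse cortex were used, 16 of the 26 deposited lists, since the windows are mouse ones; rhesus lists and inputs were not analysed here. The authors deposited each list as called intervals in bp (chromosome, start, end), 1 list per sample, with no score or count. Bowtie 0.12.9 is listed, and builds hg19 and mm9 appear with no role, per the submitters' processing notes. For the region caller and its threshold, nothing is given in the sources used here. Starts lie on a 25-bp grid, with 2 lists offset by 1 bp. Positions are 1-based.

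The genome was cut into 100-kb windows, with chromosomes 2 and 9 laid out so that the Eomes and Tbr1 windows are among them. Covered length was tested as log2(bp + 1000), and that of merged loci as log2(bp + 200), which understates changes of short values. Both used limma 3.58.1 (eBayes with a trend, R 4.3.3) with a mean per tissue over the 8 lists of a mark and Benjamini-Hochberg adjustment over all windows or loci in at least 2 lists. E17.5 is the mean of frontal and occipital cortex, whose lists were counted as independent, which the labels do not settle. Ratios were compared by exact permutation over lists (Python 3.11.15, numpy 2.4.6). The fits were tested on simulated data. The members, lists and tests were chosen with earlier results of these data known. The promoter motifs were chosen after seeing the data. Loci to be named were, per window and mark, those called in any contrast and the 4 longest, of which some stand in the text. The planned lists of other cortical genes and cell type markers were not run without an mm9 annotation. Alternatives were another pseudocount, a replicate block, all windows, scaling to the list total, an equal number of the widest regions, the central 50 kb, merging over 1000 bp and leaving out each list.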

Additional observations from a re-analysis of the deposited data

How the results depend on the processing

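The H3K27ac deficit of Eomes against Tbr1 within lists kept its direction under every alternative run, with log2 ratios of -1.28 to -1.77. So did the difference in the share of H3K4me2 bases with H3K27ac, at -51.5 to -59.2 points. The sign-flip tests of both stayed past the threshold, but they were added after the values were seen and give no independent support. The share also depends on the H3K27ac length, so these are not separate findings. The H3K4me2 ratio within lists was -0.18 in the central 50 kb.

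Scaling to the list total turned the H3K27ac difference of the Eomes window to -0.19 at E14.5 against E11.5 and that of the Tbr1 window to -0.33 at E17.5 against E11.5, and brought Eomes at E17.5 against E11.5 to -1.24, now past the threshold. Frontal against occipital H3K27ac turned to -0.12 (Eomes) and -0.051 (Tbr1). For H3K4me2, scaling gave -0.50 (Eomes) and -0.35 (Tbr1) at E17.5 against E14.5, -0.24 (Eomes) and -0.32 (Tbr1) at E17.5 against E11.5, 0.024 (Tbr1) at E14.5 against E11.5 and 0.37 (Eomes) in frontal against occipital cortex. Scaling divides by list totals that differ between tissues, which sets these shifts. In the central 50 kb H3K4me2 of Eomes gave -0.13 at E17.5 against E14.5, -0.023 at E17.5 against E11.5 and 0.018 in frontal against occipital cortex, Tbr1 gave -0.071 in the last contrast, and H3K27ac of Tbr1 gave -0.0024 there. The ratio of Eomes to Tbr1 turned in the central 50 kb to 0.089 (H3K27ac, E14.5 against E11.5), 0.084 (H3K27ac, frontal against occipital), -0.080 (H3K4me2, E17.5 against E11.5) and 0.089 (H3K4me2, frontal against occipital), and with equal region numbers to 0.073 (H3K27ac, frontal against occipital). The cause was not tested.

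The count of called H3K4me2 loci at E14.5 against E11.5 was 0 with 1000 bp added, with the replicate block and with merging over 1000 bp, and at E17.5 against E11.5 it was 0 with merging, where the merged Tbr1 locus gave 0.060. Leaving out a list in turn changed which H3K4me2 loci, if any, were called at E14.5 against E11.5, E17.5 against E14.5 and E17.5 against E11.5. The fits without E14.5 replicate 2 and without E11.5 replicate 2 moved the loci over E3 and E6, as given above. Each left 1 list in a group, so only their differences are given. Leaving out a list gave 0 to 1324 called H3K27ac windows at E14.5 against E11.5 (1263 with all lists), 0 to 510 at E17.5 against E14.5 (177), 2532 to 6268 at E17.5 against E11.5 (6480), and 0 to 297 H3K4me2 windows at E17.5 against E11.5 (246). A lone list was then assumed to vary like the others.

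Leaving out a list gave ranges across 0 for H3K27ac of Tbr1 at E17.5 against E14.5 (-0.40 to 0.23) and in frontal against occipital cortex (-0.22 to 0.47), and of Eomes there (-0.31 to 0.37). For H3K4me2 of Eomes they were -0.11 to 0.32 (E14.5 against E11.5), -0.21 to 0.22 (E17.5 against E14.5), -0.086 to 0.32 (E17.5 against E11.5) and -0.20 to 0.033 (frontal against occipital). For H3K4me2 of Tbr1 they were -0.27 to 0.023 (E14.5 against E11.5), -0.11 to 0.18 (E17.5 against E11.5) and -0.0089 to 0.11 (frontal against occipital). The ratio ranged from -0.58 to 0.38 for H3K27ac in frontal against occipital cortex, and for H3K4me2 from -0.32 to 0.015 (E17.5 against E14.5), -0.28 to 0.013 (frontal against occipital) and -0.11 to 0.059 (E17.5 against both earlier stages). The H3K27ac ratio at E17.5 against both earlier stages stayed between -0.99 and -0.67.

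Over all windows, same-numbered lists of different tissues deviated together with correlations of -0.307 to 0.169 for H3K27ac and -0.115 to 0.411 for H3K4me2. The numbers were therefore not taken as pairs in the main fits. In the Eomes window, however, H3K27ac was longer in replicate 1 than in replicate 2 in every tissue. With the replicate block no window value of Eomes or Tbr1 passed the threshold. Eomes H3K27ac at E17.5 against E14.5 then had a limma adjusted p of 0.0982, against 0.262 without the block. The block moved the count of called H3K27ac windows at E17.5 against E14.5 to 0, against 177 without it, and that of H3K4me2 windows at E17.5 against E11.5 to 995, against 246 without it. Unknown read depth, 2 lists per tissue and regions without heights limit all values.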

Other observations

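The windows whose H3K27ac length varied most like that of Eomes over the 8 lists, among 8369 windows with a mean of at least 5000 bp, lay at chr5:142800001-142900000 (Pearson r = 0.977), chr13:114700001-114800000 (r = 0.972) and chr2:101490001-101590000 (r = 0.964). Those most like Tbr1 lay at chr12:99900001-100000000 (r = 0.990), chr16:64200001-64300000 (r = 0.989) and chr3:108600001-108700000 (r = 0.989). These correlations are descriptions over 8 lists that share differences in total length, the best of many windows, and no gene was assigned to them.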
